A study of Mus musculus with 6 samples.

Results

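The caveolins Cav1, Cav2 and Cav3, the cavins Ptrf, Sdpr and Prkcdbp (cavins 1, 2 and 3 under their older symbols) and the caveola ATPase Ehd2 were followed in mouse adipose tissue RNA. The members were the rows of the deposited gene table that carry one of these symbols, 7 of 19928 genes, and all 7 were found. RNA-seq had been run on 3 samples of mice fed radix Angelica sinensis (RAS), the root of a medicinal plant, at 10.00 g for each kg of body weight, and on 3 samples of a control group. All mice were of the KM strain. A high-fat diet is named in the series title, and the control samples carry only the diet label control. The labels used here give no fat depot, sex or age, and do not state whether animals were pooled within a sample. Each p-value therefore reflects sample-to-sample spread, which may be technical.

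Caveolae are flask-shaped pits of the plasma membrane, built from caveolin oligomers and a coat of cavin proteins. They are abundant in adipocytes, endothelial cells and muscle, where they buffer membrane tension and hold signalling and lipid-handling proteins. In mice and in people, loss of Cav1 or of cavin 1 leads to a loss of body fat.

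Between 14.4 and 15.7 M reads per library were assigned to genes. The adipocyte hormone Adipoq lay at 2399, 2585 and 3460 FPKM with RAS and at 2379, 2357 and 2419 FPKM in control. FPKM count fragments per kilobase of transcript and per library depth, so levels can be compared between genes. Over all tested genes RAS 3 and control 1 lay at opposite ends of the first principal component (31.0% of the variance), at 34.5 and -24.4. The other 4 libraries lay between -8.36 and 1.20. The log2 values correlated at a mean of 0.972 within groups and 0.968 between groups.

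Prkcdbp lay lower in every RAS library, while the other abundant members overlapped between the groups. A gene was tested where its mean over the 6 libraries was at least 1 FPKM, which 12606 genes met. Of the 7 members 6 met it, and Cav3 did not. In limma's moderated test on log2(FPKM + 1), RAS minus control and adjusted over all 12606 genes (Benjamini-Hochberg), 0 members and 0 genes (0%) had an adjusted p under 0.05, and the smallest adjusted p of any gene was 0.138. At an unadjusted p under 0.05 stood 1 of the 6 members, Prkcdbp on the lower side, against 10.3% of all tested genes in either direction and 6.41% on the lower side. The RAS and control ranges did not overlap for 1 of 6 members, Prkcdbp again, against 17.9% of all tested genes in either direction and 12.5% on the lower side. The log2 difference was negative for 5 of 6 members and for 57% of all tested genes. Its median was -0.13 over the 6 members and -0.038 over all tested genes.

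**Figure D1:**
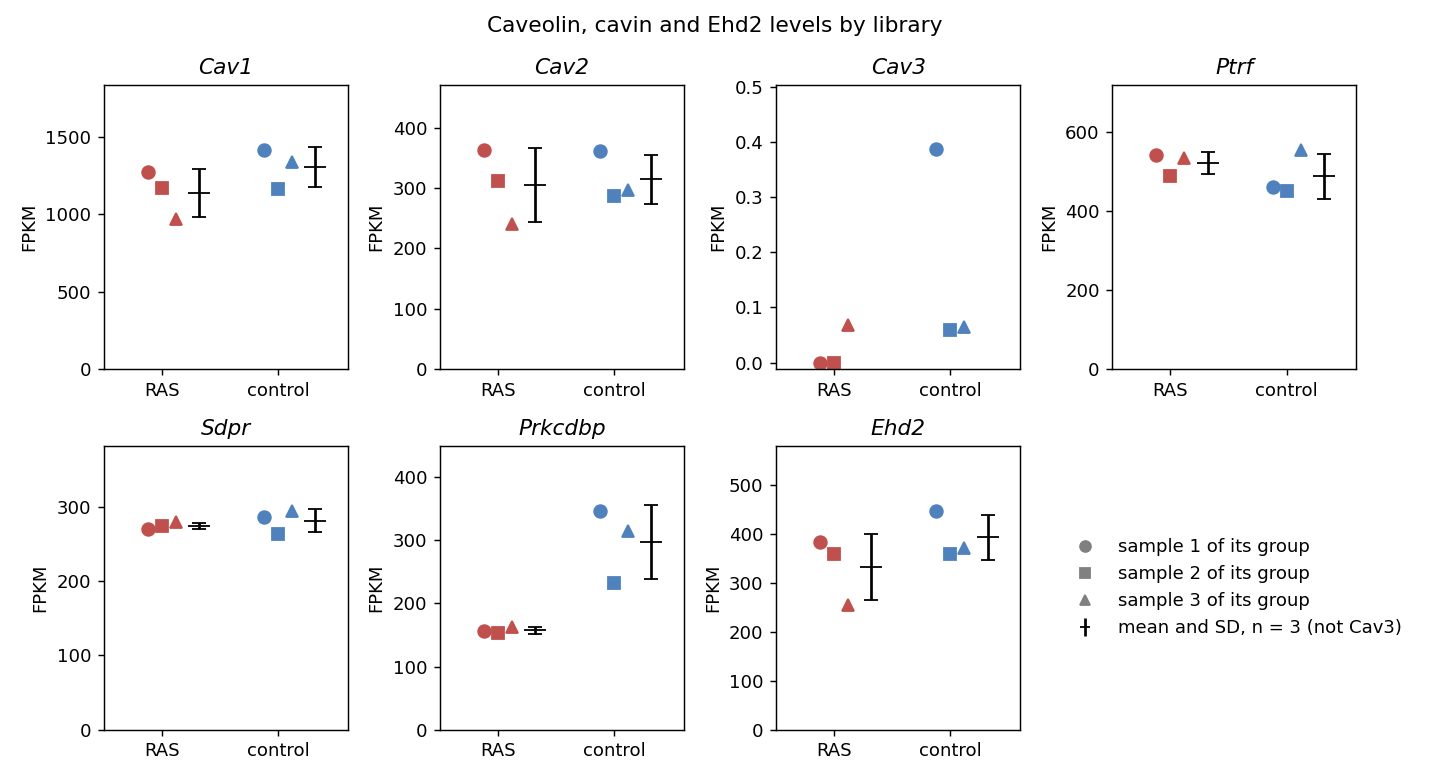
FPKM of the 7 genes in each library (points, y axis from about 0, a separate scale per gene), with the mean and SD of 3 libraries per group beside them except for Cav3. The 3 RAS libraries of Prkcdbp sit between 153 and 163 FPKM, all below the control libraries at 232 to 346 FPKM, and the groups overlap for the other genes.

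By level, Cav1 led in both groups. It ranked 31 of 12606 tested genes by mean FPKM, and the lowest tested member, Prkcdbp, ranked 289. Ptrf, Ehd2, Cav2 and Sdpr lay between them, with means over the 6 libraries of 506, 363, 310 and 278 FPKM. Cav1 was above Ptrf, Ptrf above Ehd2 and Ehd2 above Cav2 in 6 of 6 libraries. Cav2 and Sdpr were close: Cav2 was higher in 2 of 3 RAS and 3 of 3 control libraries. The place of Prkcdbp differed between groups, since Sdpr was above it in 3 of 3 RAS libraries and in 1 of 3 control libraries. The summed FPKM of the 7 genes was 2990, 2760 and 2440 with RAS and 3313, 2753 and 3171 in control, so the groups overlapped in the sum.

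Prkcdbp encodes cavin 3, a cavin that binds protein kinase C delta and joins the caveola coat through cavin 1. It has also been tied to the period of the circadian clock in cultured mouse cells. The gene (NCBI gene 109042) lies on chromosome 7 at 105480616 to 105482197. Prkcdbp stood at 156, 153 and 163 FPKM in the RAS libraries, against 346, 232 and 315 FPKM in the control libraries. Every RAS library was below every control library, and the RAS values lay much closer together than the control values. The means were 157 ± 5.18 FPKM with RAS and 298 ± 59.1 FPKM in control (SD, n = 3 each), a ratio of 0.529. The log2 difference was -0.90 ± 0.18 (SE; 95% interval -0.90 ± 0.43), with an unadjusted p of 0.00154 and an adjusted p of 0.241 in limma, so the difference did not pass over all genes. By its p the gene ranked 79 of 12606.

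The Prkcdbp values rested on 1665, 1627 and 1729 reads with RAS and on 4323, 3030 and 3541 reads in control. The counting error of the lowest library was 2.48% of its value, far below the distance between the groups. Read numbers are the authors' scaled counts divided by the value of 1 read in that library, and such errors cover counting only. With the scaled counts in place of FPKM, an alternative added after seeing the data, the difference was -0.96 (adjusted p = 0.182 in limma). Leaving out each library in turn gave -1.06 to -0.78. GENCODE M21 places an unnamed plus-strand transcript, Gm45667, over this minus-strand gene. No strand-specific step is named in the labels, so reads of these 2 genes cannot be told apart.

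The summed levels of some cell type markers were apart between the groups as well. Smooth muscle and pericyte markers, which come from cells rich in caveolae, summed to 323 to 396 FPKM with RAS and 418 to 546 FPKM in control, with 9 of 10 lower (57% of all tested genes) and 0 of 10 past the threshold in limma. At an unadjusted p under 0.05 stood 2 of 10, Acta2 and Mylk, both lower, against 6.41% of all tested genes on the lower side. The ranges were apart for the same 2 of 10, against 17.9% of all tested genes in either direction and 12.5% on the lower side. Within control the sums were 418, 533 and 546 FPKM. Control 1 thus had the lowest control sum, while its Prkcdbp was the highest, at 346 FPKM. Their most abundant genes were Acta2, smooth muscle actin, at 132 ± 11.8 FPKM with RAS and 192 ± 35.9 FPKM in control, and Tagln, transgelin, at 103 ± 14.7 and 128 ± 30.7 FPKM in RAS and control. Mature adipocyte markers had summed levels of 38692 to 54858 FPKM with RAS and 28277 to 35537 FPKM in control. Of these markers 8 of 10 were higher, while 57% of all tested genes were lower. Their median log2 difference was 0.11, and 0 of 10 were past the threshold in limma. Fabp4, a fatty acid binding protein, made up most of that sum (37958 ± 7713 FPKM with RAS and 23034 ± 2999 FPKM in control), followed by Adipoq. Without Fabp4, a sum added after seeing the data, the other 9 markers overlapped between the groups, at 9011, 8529 and 9272 FPKM with RAS and 9089, 7456 and 7471 FPKM in control. At an unadjusted p under 0.05 stood 1 of 10, against 10.3% of all tested genes in either direction and 6.41% on the lower side. It was the hormone leptin, Lep, which was lower, at 334, 293 and 320 FPKM with RAS and 615, 448 and 424 FPKM in control. The ranges were apart for 4 of 10 (Cidec, Fabp4 and Lipe higher, Lep lower), against 17.9% of all tested genes in either direction. These 4 genes were chosen after their values were seen. The part of these cell types in the Prkcdbp difference was not tested. In whole tissue, fewer cells of a type and less RNA per cell cannot be told apart.

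Endothelial markers, from the other cell type known for dense caveolae, summed to 414 to 483 FPKM with RAS and 416 to 479 FPKM in control, with 4 higher and 6 lower of 10 and 0 past the threshold in limma. At an unadjusted p under 0.05 stood 2 of 10 (10.3% of all tested genes), Eng on the higher and Tie1 on the lower side, and the ranges were apart for these and for Egfl7, which was higher (3 of 10, against 17.9%). Eng, the TGF-beta co-receptor endoglin, was at 80.1 ± 5.24 FPKM with RAS and 54.1 ± 3.89 FPKM in control, and these 3 genes were chosen after their values were seen. The most abundant markers of the list were Pecam1 at 75.6 ± 8.71 FPKM with RAS and 78.8 ± 2.92 FPKM in control, and Esam at 70.0 ± 15.4 and 78.6 ± 6.34 FPKM in RAS and control. Fibroblast and preadipocyte markers, led by Dcn and Dpt, overlapped as well (1267 to 1774 FPKM with RAS, 1470 to 2197 FPKM in control). So did mesothelium markers (93.7 to 153 FPKM with RAS and 29.0 to 236 FPKM in control) and macrophage markers (107 to 136 FPKM with RAS, 115 to 146 FPKM in control). Of the 7 tested fibroblast and preadipocyte markers 5 were lower and 2 higher (57% of all tested genes were lower), and 0 had ranges apart. At an unadjusted p under 0.05 in limma stood 1 of 7, Lum, which was lower, against 6.41% of all tested genes on the lower side. Lum was named after its values were seen. In these lists 0 markers were at 0 in all 6 libraries.

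**Figure D2:**
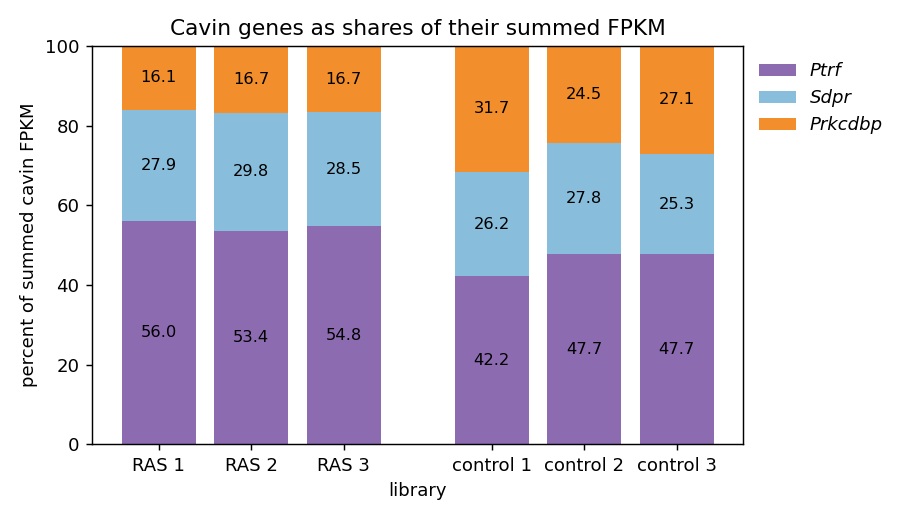
Share of each cavin gene in the summed cavin FPKM (y axis, percent) by library, RAS left and control right. Prkcdbp takes 16.1 to 16.7% in the RAS libraries and 24.5 to 31.7% in the control libraries.

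Among the cavins, Prkcdbp held 16.5 ± 0.37% of the summed cavin FPKM with RAS and 27.7 ± 3.63% in control (SD, n = 3 each), and the groups did not overlap. Ptrf took 53.4 to 56.0% with RAS and 42.2 to 47.7% in control. The sum of the 3 cavins was 969, 917 and 978 FPKM with RAS and 1093, 947 and 1163 FPKM in control, so the sums overlapped. Shares within a sum are tied to each other, so the higher share of Ptrf is not a separate difference.

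Ptrf encodes cavin 1, the cavin without which caveolae do not form, first described as a factor that releases RNA polymerase I transcripts. The gene (NCBI gene 19285) lies on chromosome 11 at 100956736 to 100970617. Ptrf stood at 543, 490 and 536 FPKM with RAS, against 461, 451 and 554 FPKM in control. The highest library was a control and the groups overlapped. On the log2 scale RAS minus control was 0.10 ± 0.16 (SE; 95% interval 0.10 ± 0.39; adjusted p = 0.855 in limma), and it was -0.076 under quantile normalization.

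Sdpr encodes cavin 2, which helps to shape the caveolar membrane and its tubules. It was the steadiest member, at 270, 274 and 279 FPKM with RAS and at 286, 263 and 294 FPKM in control. The RAS values lay inside the control range. Sdpr had a log2 difference of -0.034 ± 0.14 (SE; 95% interval -0.034 ± 0.32; adjusted p = 0.949 in limma), which was 0.011 with median-ratio size factors and 0.042 with the scaled counts. The table places Sdpr (NCBI gene 20324) on chromosome 1 at 51218386 to 51333779, a locus shared with the antisense gene 9330175M20Rik. That antisense gene was listed at 0 in 5 libraries and at 0.0171 FPKM in RAS 3.

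Cav1 encodes caveolin 1, the scaffold of caveolae outside striated muscle. The gene (NCBI gene 12389) lies on chromosome 6 at 17306335 to 17341328. Cav1 stood at 1275, 1172 and 966 FPKM with RAS, against 1411, 1160 and 1339 FPKM in control. RAS 3 was lowest, and RAS 1 and RAS 2 lay within the control range. The difference was -0.20 ± 0.20 on the log2 scale (SE; 95% interval -0.20 ± 0.47; adjusted p = 0.750 in limma), and without RAS 3 it was -0.088. Each library held 46800 to 66111 reads of the gene, a counting error of at most 0.462%.

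Cav2 encodes caveolin 2, which forms mixed oligomers with caveolin 1 and depends on it to reach the cell surface. The gene (NCBI gene 12390; chromosome 6, 17281341 to 17289011) ends 17323 bases before Cav1 starts, on the same strand. GENCODE M21 places an antisense transcript, Gm15581, over both loci, whose reads could not be told apart from theirs. Cav2 stood at 362, 312 and 240 FPKM with RAS and at 361, 286 and 296 FPKM in control. RAS 1 and RAS 3 were the highest and the lowest of all 6 libraries. Its log2 difference was -0.058 ± 0.20 (SE; 95% interval -0.058 ± 0.47; adjusted p = 0.941 in limma). The sign was not stable: the difference was 0.10 without RAS 3, 0.046 without control 1 and 0.089 with the scaled counts.

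FPKM and scaled counts were not in a fixed ratio for Cav2. The number of scaled counts behind 1 FPKM was 46.6, 47.1 and 50.1 with RAS and 39.9, 44.7 and 45.5 in control. For Prkcdbp it was 11.2, 11.3 and 10.9 with RAS and 12.1, 11.9 and 10.8 in control. The libraries differed in it over all tested genes too, with medians of 45.9, 46.4 and 45.6 with RAS and 43.4, 46.4 and 44.2 in control. The ratio of the highest to the lowest library was 1.26 for Cav2, the widest of the 6 tested members, and 1.12 for Prkcdbp.

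Ehd2 encodes an ATPase that assembles at the neck of caveolae and holds them at the cell surface. The gene (NCBI gene 259300) lies on chromosome 7 at 15948987 to 15967535. Ehd2 stood at 383, 359 and 256 FPKM with RAS, against 447, 360 and 372 FPKM in control. RAS 3 was again lowest, and RAS 1 lay within the control range. RAS minus control was -0.25 ± 0.20 on the log2 scale (SE; 95% interval -0.25 ± 0.48; adjusted p = 0.697 in limma), -0.077 without RAS 3 and 0.018 without RAS 3 and control 1.

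Cav3 encodes caveolin 3, the caveolin of striated muscle. It was at 0, 0 and 0.0687 FPKM with RAS, that is 0, 0 and 1 read, and at 0.388, 0.0592 and 0.0648 FPKM in control, that is 6, 1 and 1 reads. A count of 0 allows up to 3 reads, or 0.178 to 0.206 FPKM, so 5 of 6 libraries lay within what a count of 0 allows and no fold is given. Control 1, the library with 6 reads, also held the highest summed level of skeletal muscle markers (208 FPKM, against 136 and 69.7 FPKM in the other control libraries and 22.9 to 61.2 FPKM with RAS). Acta1, skeletal actin, made up most of it, with 38.4 ± 19.5 FPKM with RAS and 127 ± 56.9 FPKM in control, followed by Mylpf, a muscle myosin light chain, at 6.74 FPKM in control 1 and 0.171 to 0.647 FPKM elsewhere. The part of muscle RNA in the Cav3 reads was not tested. Murc, the muscle cavin 4, lay at 0.201 to 0.352 FPKM with RAS and at 0.0731 to 0.225 FPKM in control, below the minimum for testing.

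**Figure D3:**
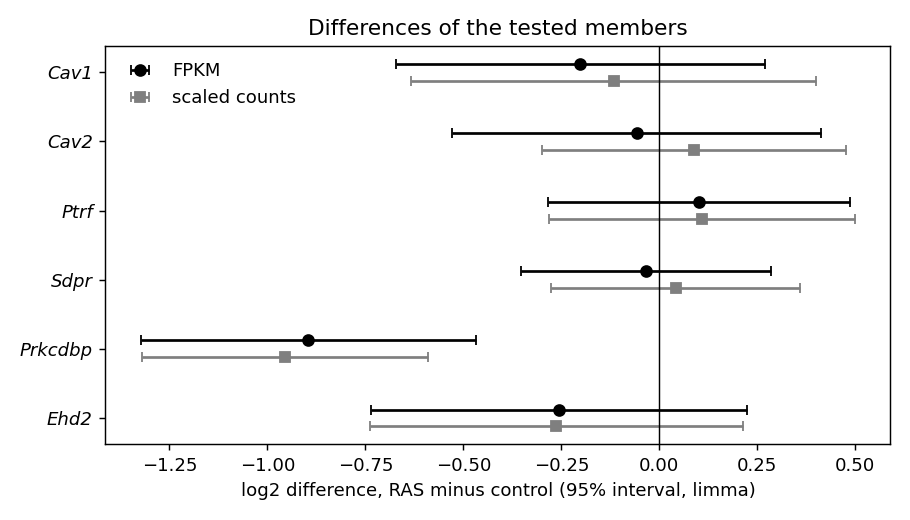
Log2 difference, RAS minus control, of the 6 tested members with its 95% interval (x axis), from FPKM (circles) and from scaled counts (squares). The intervals of Prkcdbp lie below 0 before adjustment over all genes, and those of the other 5 genes include 0.

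Across the libraries Cav1, Cav2 and Ehd2 had like deviations. Likeness was measured as the root mean square difference between the log2 deviations of 2 genes from their own means over the 6 libraries, as a description with no test. It was 0.091 between Cav1 and Ehd2, 0.11 between Cav1 and Cav2 and 0.11 between Cav2 and Ehd2. Of all tested genes, 2.20% were closer to Cav1 than Ehd2 was, and 5.51% were closer than Cav2 was. In the other direction, 0.770% were closer to Ehd2 than Cav1 was, and 2.26% were closer to Cav2 than Cav1 was. Ptrf and Sdpr also stood 0.11 apart, but both varied little (0.12 and 0.052 from their own means). Of all tested genes, 14.95% were closer to Sdpr than Ptrf was, and 4.18% were closer to Ptrf than Sdpr was. Their deviations had opposite signs in RAS 1 and in control 1. Cav1 and Ptrf stood 0.22 apart. Prkcdbp, which varied by 0.48 from its own mean, stood 0.39 from Cav1, 0.40 from Ehd2, 0.45 from Sdpr and 0.53 from Ptrf. Of all tested genes, 12.6% were closer to Prkcdbp than Cav1 was and 15.7% than Ehd2 was. For Sdpr and Ptrf these shares were 35.7% and 64.1%. All members were read from the same 6 libraries and share their depth and cell make-up, and nothing on shared control follows from likeness.

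**Figure D4:**
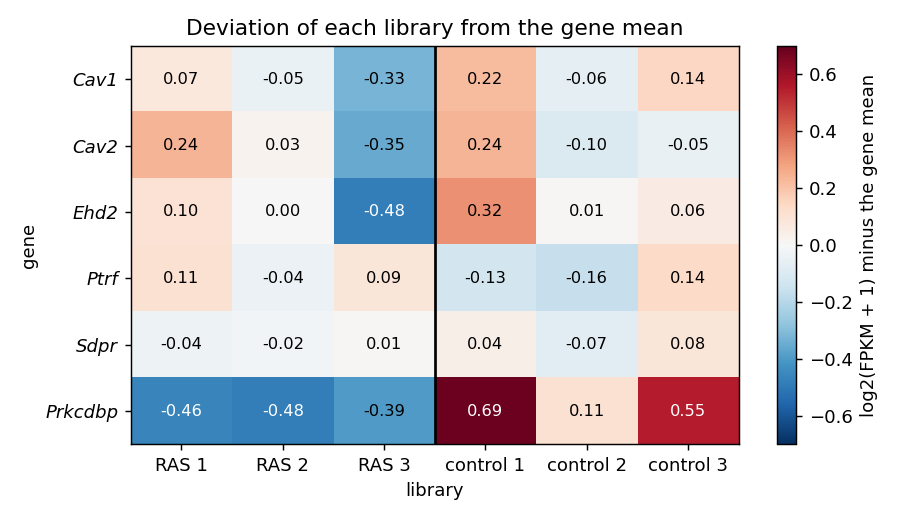
Deviation of each library (columns, RAS left and control right) from the gene's mean over 6 libraries, on the log2(FPKM + 1) scale, for the 6 tested members (rows). In RAS 3, Cav1, Cav2 and Ehd2 lie at -0.33, -0.35 and -0.48 while Ptrf and Sdpr lie at 0.087 and 0.0069, and Prkcdbp is below its mean in 3 of 3 RAS libraries.

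RAS 3, the library that sets the low end for Cav1, Cav2 and Ehd2, was also the highest in Ucp1, which encodes the heat-producing uncoupler of brown adipocytes (chosen after its values were seen). Ucp1 stood at 4.90, 4.48 and 163 FPKM with RAS and at 33.8, 13.9 and 0.0343 FPKM in control. Whether brown fat content plays a part in the low values of these 3 members was not tested. Prkcdbp lay at 163 FPKM in RAS 3, beside 156 and 153 FPKM in the other RAS libraries, and its difference without RAS 3 was -0.92.

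Promoters of 5 genes are shown to set Cav1, Cav2 and Ehd2, which were low in RAS 3, beside Ptrf and Sdpr, which were not. Each holds 250 bases before and 50 bases from the start of a RefSeq transcript (GRCm38.p6), read 5′ to 3′ on the gene's strand. Cav1 and Ptrf have 2 such starts in the table, and 1 is shown for each. The reference is not the KM strain. Capitals mark the GC box (GGGCGG or, on the other strand, CCGCCC) and the CCAAT box (CCAAT or ATTGG).
Cav1, chr6:17306085-17306384, plus strand: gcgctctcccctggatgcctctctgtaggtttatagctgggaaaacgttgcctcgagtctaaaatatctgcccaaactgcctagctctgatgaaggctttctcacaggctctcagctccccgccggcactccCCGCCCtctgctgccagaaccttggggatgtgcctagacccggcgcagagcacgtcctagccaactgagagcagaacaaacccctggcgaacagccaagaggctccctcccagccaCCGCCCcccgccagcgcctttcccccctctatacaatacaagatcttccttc
Cav2, chr6:17280935-17281234, plus strand: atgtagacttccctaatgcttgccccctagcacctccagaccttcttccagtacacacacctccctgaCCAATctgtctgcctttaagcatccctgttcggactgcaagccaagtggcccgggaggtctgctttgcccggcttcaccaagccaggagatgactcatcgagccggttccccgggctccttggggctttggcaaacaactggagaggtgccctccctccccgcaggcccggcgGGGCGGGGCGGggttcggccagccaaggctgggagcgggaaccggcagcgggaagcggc
Ehd2, chr7:15967486-15967785, minus strand: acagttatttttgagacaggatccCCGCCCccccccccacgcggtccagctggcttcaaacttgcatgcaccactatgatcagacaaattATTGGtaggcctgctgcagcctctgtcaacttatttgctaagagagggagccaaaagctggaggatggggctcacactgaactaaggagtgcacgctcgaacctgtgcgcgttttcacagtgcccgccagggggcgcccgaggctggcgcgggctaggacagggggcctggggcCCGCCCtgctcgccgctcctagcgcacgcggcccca
Ptrf, chr11:100970568-100970867, minus strand: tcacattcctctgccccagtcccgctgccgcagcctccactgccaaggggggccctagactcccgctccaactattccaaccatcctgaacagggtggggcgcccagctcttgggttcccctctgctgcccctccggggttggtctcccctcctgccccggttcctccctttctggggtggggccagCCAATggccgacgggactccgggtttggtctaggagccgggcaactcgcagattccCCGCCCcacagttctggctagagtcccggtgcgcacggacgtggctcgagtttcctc
Sdpr, chr1:51288876-51289175, plus strand: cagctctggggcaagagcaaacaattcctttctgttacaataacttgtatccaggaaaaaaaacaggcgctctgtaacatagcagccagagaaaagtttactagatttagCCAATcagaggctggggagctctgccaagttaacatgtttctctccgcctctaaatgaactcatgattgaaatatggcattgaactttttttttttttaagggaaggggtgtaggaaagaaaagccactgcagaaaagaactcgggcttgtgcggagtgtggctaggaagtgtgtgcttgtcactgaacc
The Cav1 stretch shown held 2 GC boxes and 0 CCAAT boxes, while that of its other start held 0 of either. The Cav2 stretch held 2 GC boxes that overlap by 1 base and 1 CCAAT box, and that of Ehd2 held 2 GC boxes and 1 CCAAT box. Ptrf held 1 of each at both starts, and Sdpr held 1 CCAAT box and 0 GC boxes, with 43.3% G and C against 59.3 to 66.7% in the other 4. Of 32851 RefSeq promoters of the same length, 35.7% held the GC box and 37.4% the CCAAT box. A match is a run of letters and not a shown binding site, and both boxes are common. Whether these boxes have a part in the levels in RAS 3 was not tested.

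The genes closest to each member followed the same measure, passing over unnamed gene models. For Prkcdbp they were C1qtnf7, a C1q and TNF related secreted protein (2.15 ± 0.14 FPKM with RAS and 4.73 ± 1.19 FPKM in control), the histone H3 gene Hist2h3c2 (3.97 ± 0.52 and 7.73 ± 1.54 FPKM in RAS and control) and neuritin, Nrn1 (4.75 ± 0.67 and 8.72 ± 1.99 FPKM in RAS and control). They stood at 0.091, 0.096 and 0.11 from it. Since they were picked for likeness to Prkcdbp over the same 6 libraries, their lower RAS means follow from that choice. Within the table, 2 tested genes lay within 0.1 of Prkcdbp, while 433 lay that close to Cav1 and 1626 to Sdpr. Such counts depend on a gene's own variation, which was 0.48 for Prkcdbp, 0.18 for Cav1 and 0.052 for Sdpr. The low count therefore does not show that the Prkcdbp pattern is rare. Those closest to Cav1 were Gstcd, the DNA ligase Lig3 and the sodium-proton exchanger Slc9a8. For Cav2 they were the Golgi mannosidase Man2a2, the anaphase-promoting subunit Cdc27 and Klhdc10, and for Ehd2 the trafficking subunit Trappc10, Mtmr9 and Zfp800. For Ptrf they were the deubiquitinase Otud1, Jub and Nsmce2, and for Sdpr they were Fam164a, the phosphatase Ptpn12 and the pantothenate kinase Pank2.

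Other genes of the caveola pathway were taken from a list of 18, all found in the table and 16 tested. Of the 16, 8 were higher and 8 lower, the median log2 difference was 0.0070, and 0 passed in limma (smallest adjusted p = 0.285). At an unadjusted p under 0.05 stood 2 of 16, Ehd3 and Flna, both lower, against 10.3% of all tested genes in either direction and 6.41% on the lower side. The group ranges were apart for 4 of 16 (Ehd3, Flna, Flot2 and Abl1, all lower with RAS), against 17.9% of all tested genes in either direction and 12.5% on the lower side.

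Among the EHD and pacsin genes of the list, Ehd3 was at 9.74, 5.01 and 10.4 FPKM with RAS and at 18.0, 17.7 and 15.2 FPKM in control. Every RAS library was below every control library (log2 -0.99 ± 0.24 SE, adjusted p = 0.285 in limma). Its relatives Ehd1 and Ehd4 had log2 differences of 0.037 and -0.14, and the F-BAR proteins Pacsin2 and Pacsin3 of -0.22 and 0.15. Pacsin1, the form of nerve cells, lay at 0.0136 to 0.162 FPKM and was not tested.

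Flna, the filamin that ties caveolin 1 to actin, was at 71.3, 72.1 and 47.0 FPKM with RAS and at 98.9, 116 and 102 FPKM in control. The groups did not overlap (log2 -0.75 ± 0.19 SE, adjusted p = 0.313 in limma). Flna is also abundant in smooth muscle, whose summed markers were lower with RAS as given above, and their part in it was not tested. The kinases Abl1 and Src, which act on caveolin 1 and its actin links, had log2 differences of -0.29 and 0.060. Dnm2, the dynamin of membrane scission, stood at 32.2 ± 1.15 FPKM with RAS and 31.7 ± 1.08 FPKM in control.

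Of the raft proteins, Flot1, Flot2 and Stom had log2 differences of -0.029, -0.18 and 0.18, with adjusted p of 0.641 to 0.958 in limma. Of proteins known to reside in caveolae, the fatty acid translocase Cd36 was at 1647, 1423 and 1396 FPKM with RAS and at 1428, 1167 and 1082 FPKM in control. The ranges overlapped, since control 1 was above RAS 2 and RAS 3 (log2 0.29 ± 0.20 SE, adjusted p = 0.658 in limma). The insulin receptor Insr had a log2 difference of 0.096, the endothelial nitric oxide synthase Nos3 of -0.0068 and Plvap, the diaphragm protein of endothelial caveolae, of 0.11.

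**Figure D5:**
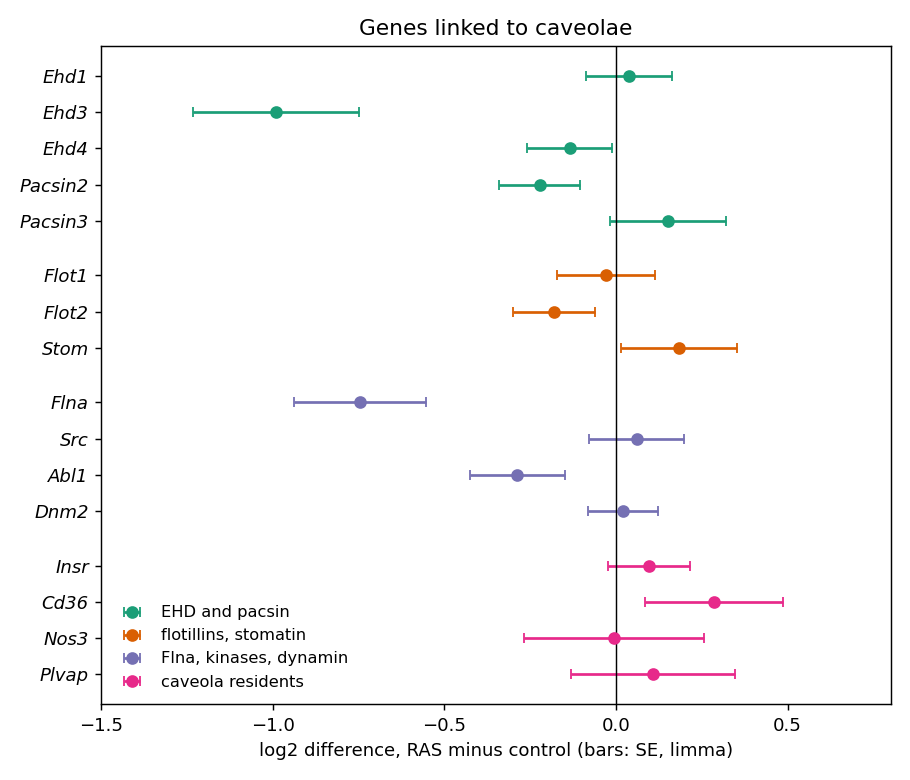
Log2 difference, RAS minus control, with its SE (x axis) for the 16 tested genes linked to caveolae, grouped by role. Ehd3 at -0.99 and Flna at -0.75 lie farthest from 0, and the other 14 genes lie between -0.29 and 0.29.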

How the data were processed

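Adipose RNA-seq of 3 RAS and 3 control samples was used. Per the submitters' processing notes, TopHat2 2.0.9 and Cufflinks 2.1.1 made the values; genome build, annotation and filters are not stated. FPKM per gene were used as the authors deposited them. The deposited table also gives a signal per gene, here called scaled counts: 98.8 to 99.0% of values above 0 were whole multiples, within 0.02, of 1 value per sample. The remaining values were not, so no count model was run. DH columns were taken as RAS, as the treatment protocol names that group, and the HC set, by elimination, as control. A further 4 columns of group values were not used. Loci are the table's, counted from 1, and 99.7% of 18403 genes overlapped their GENCODE M21 (GRCm38) gene.

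Members, lists and tests were chosen with earlier results of these data known. limma 3.58.1 (R 4.3.3; lmFit, eBayes with a trend) was run two-sided on log2(FPKM + 1) for genes with a mean of at least 1 FPKM, threshold 0.05; this scale understates the change of low genes. Named genes were the members, the pathway list, the 2 most abundant markers of described cell types (2 lists are given by their sums) and the 3 genes closest to each member. Each of 5 simulated runs of 12606 genes for this comparison held 200 changed genes and independent normal noise. In them 60.4% of log2 changes of 1 and 89.2% of those of 2 were found, with 7.2 false calls per run. The real data gave 0 calls, so these shares do not carry over to single differences such as that of Prkcdbp. Python 3.11.15 with matplotlib 3.10.9 drew the figures. The alternatives are named with their effects below; the scaled counts and the pair of libraries left out were chosen after seeing the data. Promoters came from RefSeq, matched by gene number for 6 of 7 members, all but Prkcdbp.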

Additional observations from a re-analysis of the deposited data

How the results depend on the processing

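In limma no member passed in any of 16 alternatives (a pseudocount of 0.1, no minimum, a mean of at least 5 FPKM, quantile normalization, size factors by median ratio, a robust fit, sample weights, a replicate block, each library left out, scaled counts, RAS 3 and control 1 both out), and Prkcdbp was lower in each (log2 -1.06 to -0.78, adjusted p 0.115 to 0.537 in limma; -1.04 under quantile normalization). Cav1 was also lower in each, at -0.35 to -0.029. Cav2 turned to 0.11 with sample weights, 0.10 without RAS 3, 0.046 without control 1, 0.089 with the scaled counts and 0.21 without RAS 3 and control 1, and with single libraries left out it lay between -0.19 and 0.10. Ehd2 turned to 0.018 without RAS 3 and control 1, Ptrf to -0.076 under quantile normalization, and Sdpr to 0.011 with median-ratio size factors and 0.042 with the scaled counts. The cause was not tested. The median over the 6 members was -0.28 to -0.0051. Over all tested genes 0 to 2 passed with a library left out and 3 without RAS 3 and control 1. At an unadjusted p under 0.05 stood 911 genes (of 8648 with a mean of at least 5 FPKM) to 1850 (of 12606, sample weights). The main test had 1294 of 12606, and of those 486 were higher and 808 lower with RAS. The genes at that threshold split 684 higher against 623 lower with median-ratio size factors. They split 650 against 660 under quantile normalization and 636 against 667 with the scaled counts. With the replicate block, 0 genes and 0 members passed and Prkcdbp had an adjusted p of 0.272. Same-numbered libraries correlated at 0.178, 0.0960 and 0.219 in their deviations from the group means, and each library correlated best with its own number, a hint from the data that the labels do not state. With 3 samples a group, an exact permutation test of 1 gene could not give a p below 0.1.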
